A study of Mus musculus with 6 samples.

Results

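The genes described here serve the delivery of circulating fat to brown adipose tissue: lipoprotein lipase (Lpl), its capillary anchor Gpihbp1 and inhibitor Angptl4, the fatty acid carriers Cd36, Slc27a1, Slc27a2, Fabp3, Fabp4 and Fabp5, and the lipoprotein receptor gene Vldlr. They were chosen by symbol for their known roles, and all 10 were among the 12966 genes of the deposited table. RNA sequencing had been done on brown adipose tissue of male C57BL/6J mice aged 10 weeks. The BKO group (3 libraries) carried floxed Bscl2 and a Cre recombinase under the Ucp1 promoter, and the Ctrl group (3 libraries) carried floxed Bscl2 without the Cre. Bscl2 encodes seipin, a protein of the endoplasmic reticulum that acts in lipid droplet formation. The Ucp1 promoter is active in brown adipocytes, so vascular and immune cells of the tissue are not the intended targets. Since only BKO mice carried Cre, an effect of the transgene and loss of Bscl2 cannot be told apart. Whether the libraries are from different animals is not stated, so the p-values rest on a spread between samples that may be technical. Where 3 values are given for a group, they are those of replicates 1, 2 and 3 in that order.

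Lipoprotein lipase is made by adipocytes and muscle fibres, secreted, and carried by GPIHBP1 across the endothelium to the capillary lumen. There it hydrolyses the triglycerides of chylomicrons and very low density lipoproteins. The released fatty acids enter endothelial cells and adipocytes with the help of CD36 and the fatty acid transport proteins, and are bound inside the cell by small fatty acid binding proteins. Brown adipose tissue is known for taking up large amounts of this fat as fuel for heat production.

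None of the 10 genes differed between BKO and Ctrl at the threshold used over all genes, and 2 of them separated the libraries by genotype. Fabp3 was above Ctrl in all 3 BKO libraries, and Cd36 was below Ctrl in all 3. The other 8 genes overlapped between the groups. These 2 of 10 are set against 15.9% of all 11397 tested genes whose groups did not overlap, 9.06% with BKO above Ctrl and 6.82% with BKO below. By limma with Benjamini-Hochberg adjustment, 0 of 10 genes passed, where 0.167% of all tested genes did, 0.158% higher and 0.00877% lower in BKO. With the same fit, 1 gene of the 10 was higher and 1 lower at an unadjusted p below 0.05, where 10.2% of all tested genes reached it, 6.63% higher and 3.52% lower. With so few genes, nothing particular to the set can be read from these counts. The median difference over the 10 genes was -0.10 on the log2(FPKM + 1) scale, against 0.01 over all tested genes, and 8 of the 10 were negative. Among 14 brown adipocyte markers the median was -0.08 and 9 were negative, so the set was not alone in this.

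**Figure D1:**
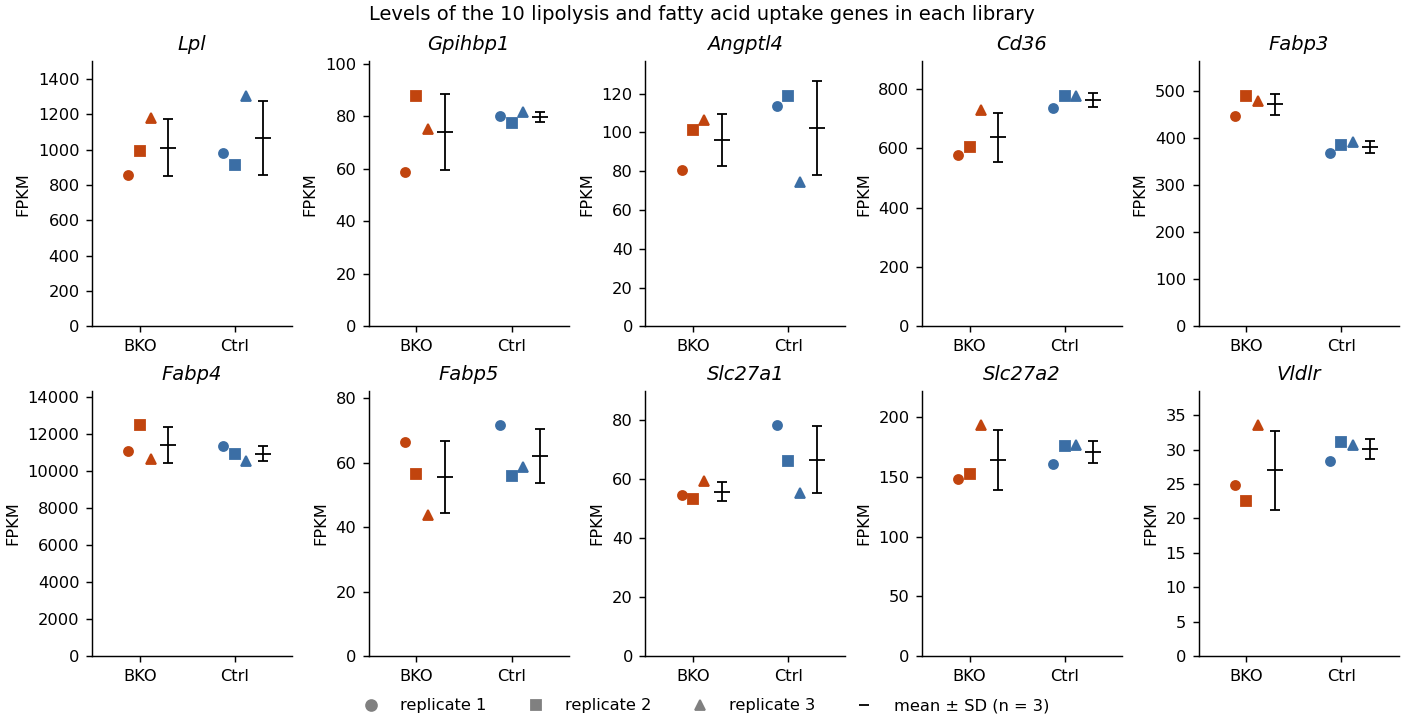
Level in FPKM (vertical axes, each starting at 0) of each of the 10 genes in the BKO and Ctrl libraries. Symbols mark replicates 1 to 3 and bars the mean ± SD of 3 libraries. Fabp3 lies between 447 and 491 FPKM in BKO libraries and between 368 and 392 FPKM in Ctrl libraries, and the points of Cd36 also separate, while those of the other 8 genes overlap.

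The promoter sequences of Fabp3 and Cd36 are shown because these were the genes whose groups did not overlap. Each is the 250 bases before a RefSeq transcription start on GRCm38.p6, read 5′ to 3′ along the gene's strand. Fabp3 is at chr4:130308488-130308737 on the plus strand and Cd36 at chr5:17835897-17836146 on the minus strand. Capitals mark matches, on either strand, to any of 4 motifs: AGGTCA (the half-site bound by many nuclear receptors), CCAAT (the box bound by NF-Y), GGGCGG (the GC box bound by Sp1) and TATAAA (found at many core promoters).
Fabp3: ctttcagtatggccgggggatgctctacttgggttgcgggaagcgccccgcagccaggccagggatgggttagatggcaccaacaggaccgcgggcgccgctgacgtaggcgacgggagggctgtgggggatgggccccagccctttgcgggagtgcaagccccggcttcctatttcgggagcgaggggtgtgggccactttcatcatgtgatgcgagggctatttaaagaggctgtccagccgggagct
Cd36: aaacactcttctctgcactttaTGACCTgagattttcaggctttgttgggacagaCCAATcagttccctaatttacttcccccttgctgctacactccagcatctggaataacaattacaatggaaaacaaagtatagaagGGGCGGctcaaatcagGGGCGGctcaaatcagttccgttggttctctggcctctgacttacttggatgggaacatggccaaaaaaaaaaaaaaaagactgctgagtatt
The Cd36 window held 1 AGGTCA match on the reverse strand, 1 CCAAT match and 2 GGGCGG matches, and the matches did not overlap. The Fabp3 window held 0 matches, which says only that these letters are not in this stretch. Over all 32851 RefSeq promoter windows of the same length, AGGTCA was found in 14.0%, CCAAT in 33.8%, GGGCGG in 32.7% and TATAAA in 12.4%. RefSeq windows were matched for 5 of the 10 genes (Fabp3, Cd36, Slc27a1, Slc27a2 and Vldlr), 8 windows in all. Of these, 2 held AGGTCA, those of Cd36 and Slc27a2, 4 held CCAAT, 5 held GGGCGG and 0 held TATAAA. With so few windows, nothing can be read from these counts. The expression values do not show which start was used.

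FPKM is scaled by transcript length, so the levels of the 10 genes were ranked. How well this scaling holds between short and long transcripts was not tested. Fabp4 was by far the highest, with a mean of 11162 FPKM over the 6 libraries, rank 17 of the 12966 listed genes. Lpl followed at 1039 FPKM (rank 65), Cd36 at 699 FPKM (rank 104), Fabp3 at 427 FPKM (rank 170) and Slc27a2 at 168 FPKM (rank 379). The order of these 5 genes was the same in all 6 libraries and their ranges did not overlap. Next came Angptl4 at 99.1 FPKM and Gpihbp1 at 76.8 FPKM, whose ranges overlapped, Angptl4 being the higher in 5 of 6 libraries. Slc27a1 at 61.2 FPKM and Fabp5 at 58.8 FPKM could not be ordered, since each was the higher in 3 of 6 libraries. The range of Gpihbp1 also overlapped that of Slc27a1. Vldlr was the lowest at 28.5 FPKM, with a highest library of 33.5 FPKM, below every value of the other 9 genes.

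Facts of the libraries that touch these values are as follows. Bscl2 stood at 16.5, 16.9 and 18.9 FPKM in BKO libraries, against 116, 104 and 106 FPKM in Ctrl libraries, so every BKO library was far below every Ctrl library, as the labels have it. Ucp1, the uncoupling protein that defines brown adipocytes, averaged 2966 ± 19.7 FPKM in BKO and 2851 ± 562 FPKM in Ctrl (SD, n = 3 each), and Adipoq, a general adipocyte marker, 570.4 ± 97.5 FPKM in BKO and 625 ± 41.5 FPKM in Ctrl. The sum of FPKM was 2808870 in BKO-3 and between 1119230 and 1617960 in the other 5 libraries, with mitochondrial transfer RNA genes the highest single entries in each of the 6. BKO-3 also held no value between 0 and 0.486 FPKM, while each other library held between 341 and 632 such values. The summed FPKM of 15 listed skeletal muscle markers ranged from 219 to 551 in BKO and from 169 to 798 in Ctrl, and Acta1, skeletal muscle actin, was highest in Ctrl-1 at 106 FPKM.

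The first step of fat delivery is the lipase itself. Lpl stood at 859, 994 and 1179 FPKM in BKO libraries, against 981, 915 and 1306 FPKM in Ctrl libraries. The groups overlapped almost fully, with the lowest library in BKO and the highest in Ctrl, and replicate 3 was the highest in both. The means were 1011 ± 161 FPKM in BKO and 1067 ± 209 FPKM in Ctrl (SD, n = 3 each). The difference in log2(FPKM + 1) was -0.07 (SE 0.17, 95% interval -0.46 to 0.32, limma adjusted p = 0.921). It was 0.08 without Ctrl-3 and 0.04 without BKO-1, so its direction rested on single libraries. In bulk tissue, fewer cells of a type and less RNA per cell cannot be told apart, here and in every result that follows.

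Gpihbp1 is made by capillary endothelial cells. It stood at 58.9, 87.8 and 75.0 FPKM in BKO libraries, against 80.0, 77.6 and 81.6 FPKM in Ctrl libraries. The BKO libraries surrounded the narrow Ctrl range on both sides. The means were 73.9 ± 14.5 FPKM in BKO and 79.7 ± 2.02 FPKM in Ctrl (SD, n = 3 each), a coefficient of variation of 19.6% in BKO and 2.53% in Ctrl. The difference was -0.13 (SE 0.14, 95% interval -0.44 to 0.19, limma adjusted p = 0.809), and it was 0.03 without BKO-1. Among 18 endothelial markers 0 passed, where 0.167% of all tested genes did, so this count says nothing about endothelial content. The summed FPKM of these markers was 494 to 537 in BKO and 465 to 539 in Ctrl. Cdh5, the cadherin of endothelial junctions, averaged 35.2 ± 2.27 FPKM in BKO and 35.4 ± 1.68 FPKM in Ctrl.

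Angptl4, a secreted inhibitor of the lipase that fasting and fatty acids are known to induce, varied most within the Ctrl group. It stood at 80.6, 101 and 106 FPKM in BKO libraries, against 113, 119 and 74.2 FPKM in Ctrl libraries. Both the highest and the lowest value were Ctrl libraries. The difference was -0.07 (SE 0.19, 95% interval -0.51 to 0.38, limma adjusted p = 0.940), the widest interval of the 10 genes. Without Ctrl-3 the difference was -0.28, and it turned positive without Ctrl-1 (0.02), Ctrl-2 (0.06) or BKO-1 (0.05).

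Cd36, the scavenger receptor that takes up long-chain fatty acids, was the gene with the lowest difference of the set. Its levels were 576, 604 and 729.8 FPKM in BKO libraries, against 734, 776 and 776 FPKM in Ctrl libraries. Every BKO library lay below every Ctrl library, but BKO-3 and Ctrl-1 were nearly equal. The means were 637 ± 81.9 FPKM in BKO and 762 ± 24.1 FPKM in Ctrl (SD, n = 3 each), a ratio of 0.835. The difference of -0.27 (SE 0.10, 95% interval -0.51 to -0.03) did not pass (limma unadjusted p = 0.0341, adjusted p = 0.441). It was between -0.37, without BKO-3, and -0.20, without BKO-1, when 1 library was left out. Cd36 is also expressed by endothelial cells and macrophages.

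Among the fatty acid transport proteins, which also activate fatty acids to acyl-CoA, both genes averaged lower in BKO without passing. Slc27a1 (FATP1) stood at 54.6, 53.3 and 59.3 FPKM in BKO libraries, against 78.2, 66.2 and 55.4 FPKM in Ctrl libraries. The BKO libraries were close together and the Ctrl libraries spread widely, with Ctrl-3 inside the BKO range. The difference was -0.24 (SE 0.12, 95% interval -0.53 to 0.05, limma adjusted p = 0.573). It was -0.12 without Ctrl-1, the library with the highest muscle markers, and -0.36 without Ctrl-3. Slc27a1 is a gene of skeletal muscle as well, and with the muscle markers as a covariate its difference was -0.24 (limma adjusted p = 0.571). The covariate, their mean log2(FPKM + 1), was 3.80, 4.82 and 3.48 in BKO libraries, against 5.40, 3.01 and 3.67 in Ctrl libraries. Its group averages were nearly equal, so this fit could hardly move a difference between the groups. The part of muscle RNA in these values was not tested. Slc27a2 (FATP2, a very long-chain acyl-CoA synthetase) stood at 148, 152 and 193 FPKM in BKO libraries, against 161, 176 and 177 FPKM in Ctrl libraries. BKO-3 was above all Ctrl libraries and BKO-1 and BKO-2 below them. Its difference was -0.07 (SE 0.11, 95% interval -0.33 to 0.20, limma adjusted p = 0.888), and it was -0.19 without BKO-3 and just above 0 without BKO-1.

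Fabp3, the fatty acid binding protein of heart, muscle and brown fat, was the gene with the highest difference of the set. Its levels were 447, 491 and 479 FPKM in BKO libraries, against 368, 385 and 392 FPKM in Ctrl libraries. The lowest BKO library was above the highest Ctrl library, and the spread within each group was small. The means were 472 ± 22.6 FPKM in BKO and 382 ± 12.5 FPKM in Ctrl (SD, n = 3 each), a difference of 23.6%. The log2 difference was 0.30 (SE 0.07, 95% interval 0.14 to 0.47), with a limma unadjusted p = 0.00326 and an adjusted p = 0.247, so Fabp3 did not pass over all genes. With 1 library left out the difference was between 0.28 and 0.34. With the muscle markers as a covariate it was 0.30 (limma adjusted p = 0.269), a fit that could hardly move it, as said for Slc27a1.

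Fabp3-ps1, annotated as a pseudogene of Fabp3, is listed apart and was looked at after the values of Fabp3 were seen. It stood at 12.9, 13.3 and 13.2 FPKM in BKO libraries, against 10.7, 10.9 and 11.0 FPKM in Ctrl libraries. Its level was 2.71% to 2.89% of that of Fabp3 in BKO libraries and 2.81% to 2.90% in Ctrl libraries, nearly the same share in all 6. Near-identical copies can split reads, so the level of Fabp3-ps1 is uncertain and is not a second measurement of the difference.

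Fabp4, the adipocyte fatty acid binding protein, made up between 95.3% and 95.8% of the summed FPKM of Fabp3, Fabp4 and Fabp5 in BKO libraries and between 95.9% and 96.3% in Ctrl libraries. It stood at 11099, 12460.3 and 10640 FPKM in BKO libraries, against 11345, 10909 and 10519.8 FPKM in Ctrl libraries. The groups overlapped, with BKO-2 alone above the Ctrl libraries. The difference was 0.06 (SE 0.12, 95% interval -0.22 to 0.34, limma adjusted p = 0.909), and -0.09 under quantile normalization.

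Fabp5, a binding protein of epidermis, endothelium and macrophages as well as fat, stood at 66.3, 56.5 and 43.8 FPKM in BKO libraries, against 71.5, 55.9 and 58.7 FPKM in Ctrl libraries. BKO-3 was the lowest of all 6 and Ctrl-1 the highest, and the remaining 4 were mixed. The difference was -0.17 (SE 0.16, 95% interval -0.54 to 0.20, limma adjusted p = 0.773). It was -0.01 without BKO-3, -0.06 without Ctrl-1 and -0.30 without BKO-1.

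Vldlr, the receptor that binds very low density lipoprotein and helps the lipase act on it, stood at 24.9, 22.6 and 33.5 FPKM in BKO libraries, against 28.4, 31.1 and 30.7 FPKM in Ctrl libraries. Again the BKO libraries lay on both sides of a narrow Ctrl range. The difference was -0.17 (SE 0.14, 95% interval -0.49 to 0.16, limma adjusted p = 0.735), and it was between -0.33, without BKO-3, and -0.05, without BKO-2.

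**Figure D2:**
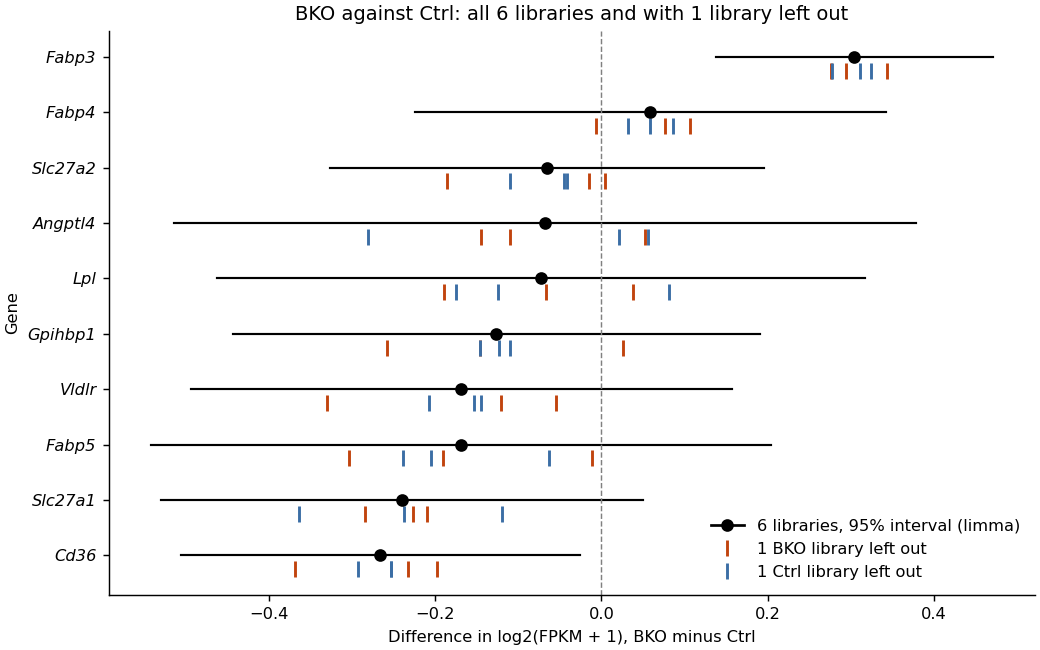
Difference in log2(FPKM + 1), BKO minus Ctrl (horizontal axis), for each of the 10 genes (vertical axis). Black points and lines are the estimate and 95% interval from all 6 libraries by limma, and short ticks the estimates with 1 BKO or 1 Ctrl library left out. The intervals of Fabp3 (0.14 to 0.47) and Cd36 (-0.51 to -0.03) do not reach 0, and ticks on both sides of 0 are seen for Lpl, Gpihbp1, Angptl4, Fabp4 and Slc27a2.

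Ratios between genes of the set were taken within each library, where the scaling of the library cancels. Fabp3 was 4.03%, 3.94% and 4.50% of Fabp4 in BKO libraries, against 3.25%, 3.53% and 3.73% in Ctrl libraries. The groups did not overlap. An exact two-sided permutation test gave p = 0.1, which is as low as 3 against 3 libraries can go, and adjusted p = 0.6 over 6 ratios. This ratio uses the same Fabp3 values and is not separate evidence. Angptl4 was 9.38%, 10.2% and 9.01% of Lpl in BKO libraries, against 11.5%, 13.0% and 5.69% in Ctrl libraries. The inhibitor to lipase ratio was nearly even over BKO libraries and lowest in Ctrl-3, where Lpl was highest, and its groups overlapped (exact two-sided permutation p = 1). The log2 difference of this ratio was 0.005 and depended on single Ctrl libraries, at -0.36 without Ctrl-3, 0.23 without Ctrl-2 and 0.15 without Ctrl-1. Gpihbp1 to Lpl averaged 7.35% ± 1.31 in BKO and 7.63% ± 1.21 in Ctrl (SD, n = 3 each, exact two-sided permutation p = 1). Fabp5 to Fabp4 averaged 0.488% ± 0.0970 in BKO and 0.567% ± 0.0595 in Ctrl (exact p = 0.3). Slc27a2 exceeded Slc27a1 in every library, at 294% ± 28.4 of its level in BKO and 263% ± 56.9 in Ctrl (exact p = 0.4), a log2 difference of 0.18 that was 0.01 without Ctrl-1, 0.10 without BKO-3 and 0.33 without Ctrl-3. Vldlr to Lpl averaged 2.67% ± 0.347 in BKO and 2.88% ± 0.523 in Ctrl (exact p = 0.6).

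**Figure D3:**
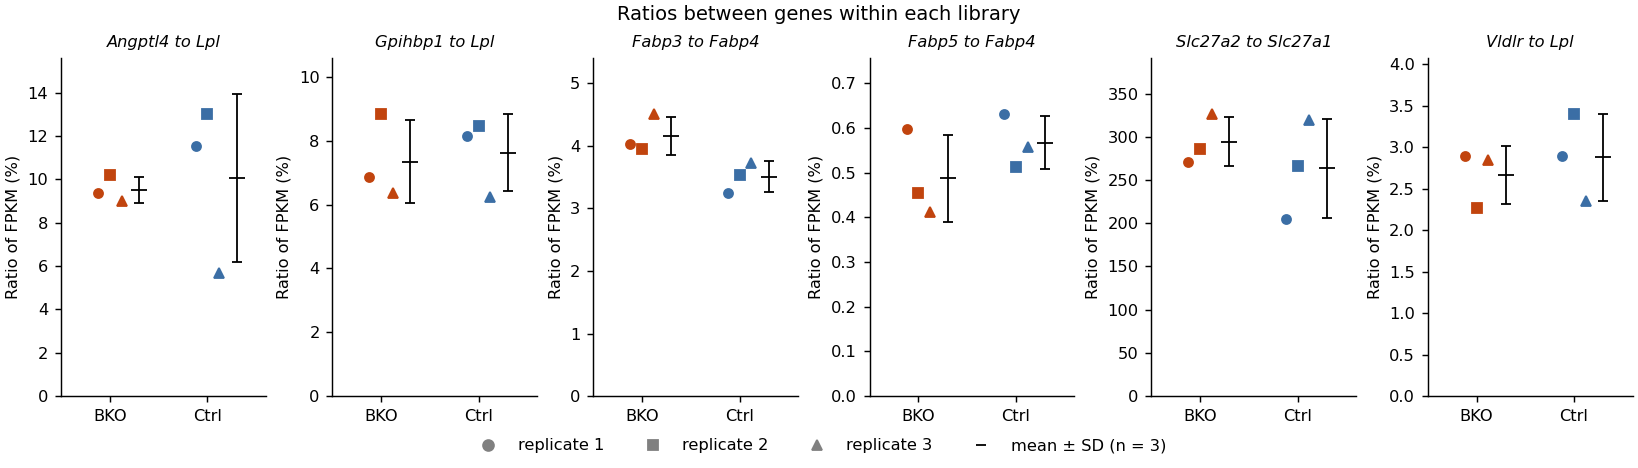
Level of one gene as a percentage of another in the same library (vertical axes, each starting at 0) for 6 pairs, in BKO and Ctrl. Symbols mark replicates 1 to 3 and bars the mean ± SD of 3 libraries. The Fabp3 to Fabp4 ratio is 3.94% to 4.50% in BKO libraries and 3.25% to 3.73% in Ctrl libraries, and the other 5 ratios overlap between the groups.

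Among the genes whose levels followed Lpl most closely over the 6 libraries were Smcr8 and the co-chaperone gene Dnajb4. The root mean square difference from the centred log2(FPKM + 1) levels of Lpl was 0.0425 for Smcr8 and 0.0426 for Dnajb4, where the spread of Lpl itself was 0.208. They were among the nearest of 7099 genes compared, and all values share the same 6 libraries.

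Other genes of lipid delivery and its regulation were read from 5 lists with 63 tested genes. None of the 63 passed (limma, lowest adjusted p = 0.248), where 0.167% of all tested genes did. Unadjusted, limma gave a p below 0.05 for 5 genes higher and 6 lower in BKO, 17.5% of the 63, against 10.2% of all tested genes. The groups did not overlap for 10 of the 63, or 15.9%, which is also the share over all tested genes. The median log2 difference was -0.03.

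Of the genes that mature, steer or modulate the lipase, 14 were tested and their median difference was -0.04. The most abundant were Apoc1 and Apoe, apolipoproteins that affect lipase action and remnant uptake. Apoc1 stood at 811, 943 and 989 FPKM in BKO libraries, against 963, 966 and 1158 FPKM in Ctrl libraries. Apoe stood at 459, 563 and 697 FPKM in BKO libraries, against 728, 566 and 603 FPKM in Ctrl libraries. The groups overlapped for both. Furin, Sort1 and Sel1l, named after their values were seen, separated the groups. Furin did so narrowly, at 18.38, 17.80 and 17.54 FPKM in BKO libraries, against 18.83, 18.39 and 18.55 FPKM in Ctrl libraries (limma adjusted p = 0.833). Sort1, the sorting receptor sortilin, stood at 28.8, 28.2 and 34.2 FPKM in BKO libraries, against 41.6, 39.8 and 36.1 FPKM in Ctrl libraries (limma adjusted p = 0.287). Sel1l, needed for the lipase to leave the endoplasmic reticulum, stood at 15.8, 15.6 and 16.3 FPKM in BKO libraries, against 14.2, 13.0 and 12.4 FPKM in Ctrl libraries (limma adjusted p = 0.329). Sel1l is also a gene of endoplasmic reticulum quality control. Lmf1, the lipase maturation factor, also named after its values were seen, overlapped, at 21.5 FPKM in BKO and 20.6 FPKM in Ctrl on average.

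The 9 tested lipoprotein receptor genes had a median difference of 0.16. Lrp1, the large remnant receptor, stood at 44.2, 45.6 and 39.7 FPKM in BKO libraries, against 34.4, 33.6 and 27.7 FPKM in Ctrl libraries. All BKO libraries were above all Ctrl libraries, with a difference of 0.43 (SE 0.10, limma unadjusted p = 0.00342, adjusted p = 0.248). Lrp1 is also expressed by macrophages and fibroblasts. Scarb1, the high density lipoprotein receptor, stood at 38.8, 45.2 and 50.0 FPKM in BKO libraries, against 40.5, 37.6 and 33.1 FPKM in Ctrl libraries (limma adjusted p = 0.496), and the groups overlapped. Sorl1, a sorting receptor picked for its values, stood at 4.06, 3.85 and 2.93 FPKM in BKO libraries, against 4.37, 5.38 and 5.43 FPKM in Ctrl libraries (limma adjusted p = 0.374).

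The other fatty acid carriers gave 9 tested genes with a median of -0.05. Dbi, the acyl-CoA binding protein, averaged 2390 ± 295 FPKM in BKO and 2414 ± 145 FPKM in Ctrl (SD, n = 3 each). Cav1, the caveolin of adipocytes and endothelium, averaged 329 ± 38.7 FPKM in BKO and 357 ± 21.5 FPKM in Ctrl. Slc27a4 (FATP4), picked for its values, stood at 6.71, 6.15 and 5.82 FPKM in BKO libraries, against 7.41, 7.49 and 7.10 FPKM in Ctrl libraries. Its groups did not overlap (difference -0.21, SE 0.08, limma adjusted p = 0.441). Its level was far below that of Slc27a1 in every library. Cav2 and Sdpr, also picked for their values, were lower in all BKO libraries than in all Ctrl libraries as well. Cav2 averaged 73.9 FPKM in BKO and 82.4 FPKM in Ctrl (limma adjusted p = 0.485). Sdpr averaged 56.4 FPKM in BKO and 58.5 FPKM in Ctrl (limma adjusted p = 0.809). Of the 9 genes, 3 had a difference above 0.

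Signals known to govern endothelial fatty acid passage gave 10 tested genes with a median of 0.01. Vegfb, a growth factor linked to endothelial fatty acid transport, stood at 77.3, 95.2 and 89.3 FPKM in BKO libraries, against 109, 101 and 97.3 FPKM in Ctrl libraries. All BKO libraries were below all Ctrl libraries (difference -0.23, SE 0.09, limma adjusted p = 0.465). Nrp1, a co-receptor for it, overlapped, at 45.5 ± 9.03 FPKM in BKO and 47.1 ± 3.85 FPKM in Ctrl.

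The 21 tested regulators, among them the peroxisome proliferator-activated receptors that drive many genes of this set, had a median of -0.03. Cebpb, an early adipogenic factor, averaged 267 ± 22.5 FPKM in BKO and 213 ± 34.0 FPKM in Ctrl (limma adjusted p = 0.440), and Cebpa averaged 189 ± 22.7 FPKM in BKO and 211 ± 45.0 FPKM in Ctrl (limma adjusted p = 0.828). Pparg, named after its values were seen, overlapped, at 113 ± 16.8 FPKM in BKO and 102 ± 13.7 FPKM in Ctrl. Ppara, picked for its values, stood at 34.1, 31.0 and 45.2 FPKM in BKO libraries, against 50.2, 51.0 and 41.5 FPKM in Ctrl libraries (difference -0.37, limma adjusted p = 0.454), and its groups overlapped. Epas1, also picked for its values, went the other way and its groups did not overlap. It stood at 85.3, 83.5 and 77.8 FPKM in BKO libraries, against 72.3, 75.0 and 69.7 FPKM in Ctrl libraries (difference 0.18, limma adjusted p = 0.431).

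**Figure D4:**
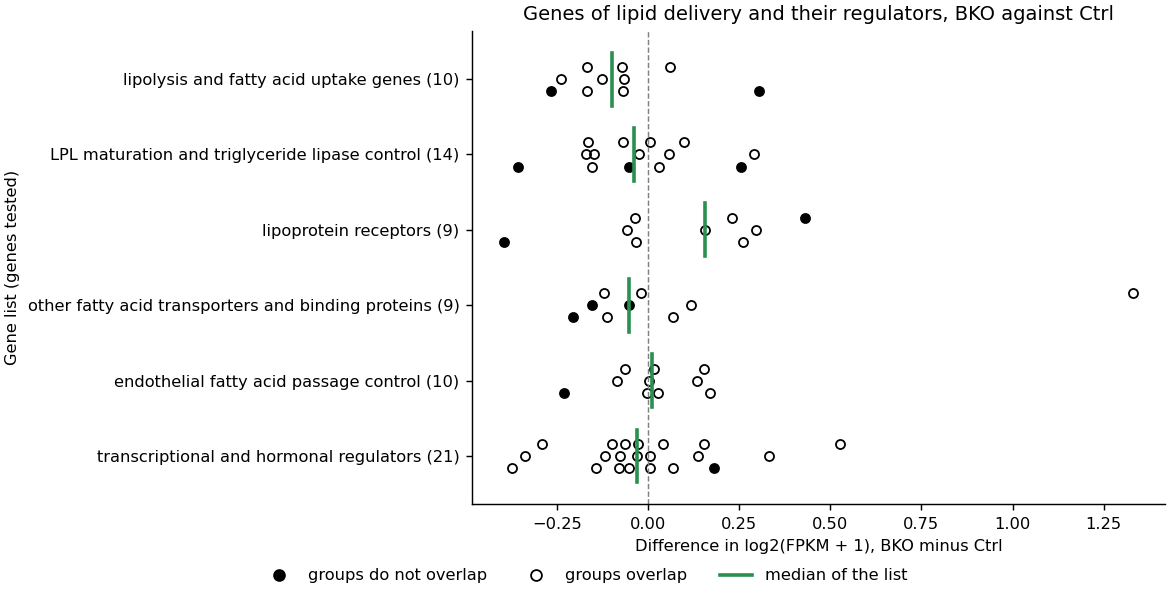
Difference in log2(FPKM + 1), BKO minus Ctrl (horizontal axis), of each tested gene in the 10-gene set and in 5 lists of related genes (vertical axis, number tested in brackets). Filled points are genes whose BKO and Ctrl libraries do not overlap, open points overlap, and green bars are list medians. The medians lie between -0.10 for the set and 0.16 for lipoprotein receptors, and the point at 1.33 is Mfsd2a.

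Macrophages are another source of Lpl, Cd36, Fabp4, Fabp5, Apoe and Lrp1 transcripts, and their tested markers were higher in BKO. Of 17 tested macrophage markers, 17 had a difference above 0, with a median of 0.93. By limma 5 of them passed and 12 did not, where 0.158% of all tested genes passed as higher. Unadjusted, 15 reached a limma p below 0.05 as higher in BKO, where 6.63% of all tested genes did. Cd163, named after its values were seen and below the filter, ran the other way, at 0.468 FPKM in BKO and 1.04 FPKM in Ctrl on average. Gpnmb and Ms4a7, also named after their values were seen, were among those that passed the test. They averaged 0.255 and 0.573 FPKM in Ctrl, so they met the filter only through BKO, where they were high. The summed FPKM of the 21 listed markers was 200.3 to 249 in BKO and 69.8 to 114 in Ctrl, and none was listed at 0. Lyz2, the lysozyme of macrophages, averaged 84.2 ± 10.5 FPKM in BKO and 23.8 ± 6.20 FPKM in Ctrl, while Emr1, the F4/80 antigen gene, did not pass, at 2.25 ± 0.214 FPKM in BKO and 1.10 ± 0.300 FPKM in Ctrl (SD, n = 3 each, limma adjusted p = 0.198). Of the genes just named, Lpl, Cd36, Fabp5 and Apoe averaged lower in BKO and Fabp4 and Lrp1 higher, and the part of macrophage RNA in their values was not tested. The preadipocyte and fibroblast markers summed to 272 to 322 FPKM in BKO and 223 to 271 FPKM in Ctrl. Of the 10 tested, 9 had a difference above 0, with a median of 0.41. By limma 0 of them passed, where 0.167% of all tested genes did. Unadjusted, 3 of the 10 reached a limma p below 0.05 as higher in BKO, where 6.63% of all tested genes did. Pericyte and smooth muscle markers summed to 154 to 163 FPKM in BKO and 146 to 160.5 FPKM in Ctrl, and erythroid markers to 502 to 511 FPKM in BKO and 426 to 678 FPKM in Ctrl. Among the 6 lymphocyte markers 1 is listed.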

How the data were processed

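Per the labels' protocols, Trizol was used for RNA extraction and a TruSeq kit for the libraries. The authors deposited FPKM per gene, that is, fragments scaled by transcript length and by the mapped fragments of the library. The submitters' processing notes name CASAVA 1.8, TopHat2 2.0.12, Cufflinks 2.2.1 and the build NCBIM37, while their settings and the gene annotation were not given in the sources at hand. The values are not counts, so the depth of each library is unknown and no count model was used. Columns were matched to libraries by the sample names in the descriptions, which call the BKO libraries WT and the Ctrl libraries MT.

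The table lists 12966 genes. Genes averaging at least 1 FPKM across the 6 libraries (11397) entered a limma 3.58.1 fit of log2(FPKM + 1) without covariates (R 4.3.3, trended empirical Bayes). The p-values were Benjamini-Hochberg adjusted over all of them, with a threshold of 0.05. The added 1 makes differences of low genes look smaller than they are. Ratios between genes within a library were compared with an exact two-sided permutation test, adjusted over 6 ratios. The fit was tested on simulated data.

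The genes, the gene lists and the tests were chosen with earlier results of these data known. The rule for named genes took all 10 genes of the set, Bscl2, the members of each pathway list that passed or else the 2 with the highest mean FPKM, 6 defining markers and the 3 genes nearest to Lpl, of which 1 is not reported here. Fabp3-ps1 and other genes were added after their values were seen, which is said where they appear. Alternatives were another pseudocount, other filters and scalings, other empirical Bayes settings, array weights, a replicate block, a muscle covariate and leaving out each library. Promoter sequences came from RefSeq on GRCm38.p6, another build than the authors used. Whether the replicate numbers pair the libraries is not known, so the blocked fit is an alternative.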

Additional observations from a re-analysis of the deposited data

How the results depend on the processing

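Under 17 alternatives, 0 of the 10 genes and 0 of the 63 related genes passed in either direction. In the main fit 0.167% of all tested genes passed, so these counts say little. With every library rescaled to the same sum of FPKM, the SE of Fabp3 was 0.52, against 0.07 in the main fit. That setting could hardly call any of the 10 genes. Of 170 values of single genes under the 17 alternatives, 160 kept their sign. With no filter, a mean of at least 5 FPKM, other empirical Bayes settings or the replicate block, the estimates cannot change. Those signs were therefore fixed in advance. Fabp3 ranged from 0.11 to 0.34 and Cd36 from -0.46 to -0.20, the first value of each with every library rescaled to the same sum of FPKM. That rescaling moved the median of all genes by -0.14, and Fabp4 was -0.138 with it and -0.0903 with quantile normalization. With 1 library left out, Lpl ranged from -0.190 (without BKO-3) to 0.0812 (without Ctrl-3), with 0.0382 without BKO-1. Gpihbp1 ranged from -0.258 (without BKO-2) to 0.0257 (without BKO-1), and Slc27a2 from -0.186 (without BKO-3) to 0.00480 (without BKO-1). Angptl4 ranged from -0.280 (without Ctrl-3) to 0.0556 (without Ctrl-2), with 0.0521 without BKO-1 and 0.0214 without Ctrl-1. Fabp4 ranged from -0.00695 (without BKO-2) to 0.107 (without BKO-3). Among the ratios, Fabp3 to Fabp4 ranged from 0.19 to 0.29, Gpihbp1 to Lpl from -0.20 to 0.04, Fabp5 to Fabp4 from -0.39 to -0.12 and Vldlr to Lpl from -0.24 to 0.03. The causes were not tested.

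Over all genes, 18 were higher and 1 lower in BKO. The higher genes numbered 11 with no filter, 9 with a mean of at least 5 FPKM, 37 after rescaling to the same sum, 32 with robust empirical Bayes, 48 with array weights and 8 with the muscle covariate. The lower genes numbered 10 after that rescaling and 6 with array weights. With 1 library left out there were 5 to 41 higher (5 without BKO-1, 8 without Ctrl-2 and 41 without BKO-3) and 1 to 3 lower genes. Unadjusted p below 0.05 was reached by 691 higher and 561 lower genes after median ratio rescaling and by 641 and 622 after quantile normalization, against 756 and 401 as deposited.

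Deviations of same-numbered libraries correlated at 0.196, -0.104 and -0.100. Deviations from a mean of 3 libraries constrain each other, so these values cannot decide whether the numbers pair the libraries. With a replicate block 23 genes were higher and 2 lower, and Fabp3 was 0.30 (limma adjusted p = 0.314). Depth is unknown, so no counting error can be given, and since BKO-3 holds no value between 0 and 0.486 FPKM, genes that fell below that level there may be missing from the table.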

Other observations

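Several genes of lipid use differed more between libraries of 1 genotype than between genotypes, and were chosen for this after their values were seen. Mfsd2a, a transporter of lysophosphatidylcholine carrying long-chain fatty acids, stood at 12.3, 56.6 and 38.6 FPKM in BKO libraries, against 4.47, 5.25 and 54.7 FPKM in Ctrl libraries. Ppargc1a, a coactivator of oxidative metabolism, stood at 12.8, 38.4 and 28.4 FPKM in BKO libraries, against 11.7, 9.62 and 38.7 FPKM in Ctrl libraries. Foxo1, a transcription factor that insulin signalling restrains, stood at 11.2, 29.6 and 21.0 FPKM in BKO libraries, against 15.5, 13.1 and 23.7 FPKM in Ctrl libraries. BKO-2, BKO-3 and Ctrl-3 were the highest libraries for all 3 genes. Those libraries were also the highest for Lpl, at 994, 1179 and 1306 FPKM, but Ctrl-1 was close to BKO-2, at 981 FPKM. Angptl4 was at its lowest in Ctrl-3, at 74.2 FPKM.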
